A study of Mus musculus with 27 samples.

Results

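Nodal, its feedback inhibitors Lefty1 and Lefty2, and the ligand, co-receptor, receptors and antagonists that act with them were followed through naïve, formative and primed mouse pluripotent cells. The set held 9 genes, chosen by symbol with earlier results of these data known: the ligands Nodal and Gdf3, the co-receptor Tdgf1, the receptors Acvr1b and Acvr2b, and the extracellular inhibitors Lefty1, Lefty2, Cer1 and Fst. All 9 were among the 23604 genes of the bulk RNA table, and 7 of the 9 were among the 16299 and 16176 genes of the single-cell tables, where Gdf3 and Cer1 were not listed.

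Nodal is a TGF-beta family ligand that binds a complex of the type I receptor Acvr1b (ALK4), a type II receptor such as Acvr2b, and the membrane-tethered co-receptor Tdgf1 (Cripto), and signals through Smad2 and Smad3 with partners such as Foxh1. Nodal and its antagonists Lefty1 and Lefty2 are themselves targets of the signal, so the pathway carries both a positive and a negative feedback loop. In the early postimplantation embryo it maintains the epiblast and, with higher activity, patterns the primitive streak, while Cer1 and Lefty1 from the anterior visceral endoderm restrict it. Activin A, which was added to most of the media used here, acts on the same receptors without needing Tdgf1, and follistatin (Fst) binds and blocks Activin.

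The study derived formative pluripotent stem cells (fPSCs) from mouse embryonic stem cells (mESCs) by culture in Matrigel, and 19 bulk RNA libraries were measured, all labelled wild type although 46C, BVSC and ROSAmTmG are reporter lines. The 2 mESC libraries came from feeder-free cells in N2B27 medium with 1 uM PD035901, 3 uM Chir99021 and 1000 units/ml hLIF. The 2 EpiLC libraries (transient epiblast-like cells) came from N2B27 with 1% KSR, Activin A at 20 ng/ml and bFgf2 at 12 ng/ml, the medium in which Epiblastoids were grown in Matrigel for 2, 3 or 4 days (1 library per day). The 2 EpiSC libraries (primed epiblast stem cells) came from cells on mitomycin C-inactivated fibroblast feeders, in 15% KSR with those doses of Activin A and bFgf2 and with the Wnt pathway inhibitor XAV939 (5 uM). The fPSCs were kept in Matrigel in N2B27 with the same doses of Activin A and bFgf2 and with XAV939, for which the labels of the first set of records described next give 5 uM and those of the second set and of the single cells 5 mM. Whether the doses differed or only the unit was written otherwise was not settled here. Activin A was thus present for every group other than mESCs, so a difference from mESCs cannot be told apart from the presence of the added ligand. The fPSC group of 7 libraries joined a first set of records (passages 10, 20 and 30 of the line CMT) and a second set prepared with another kit (CMT at passage 11, 46C at passage 24, BVSC at passage 14 and ROSAmTmG at passage 12), which are also given apart because the comparison groups all belong to the first set. A further library held fPSCs at passage 1, and 2 held passage 10 fPSCs from E5.5 and E6.5 epiblasts. Nothing in the labels says that the replicates of mESCs, EpiLCs or EpiSCs came from separate cultures, so p-values measure only the spread between libraries. The 7 fPSC libraries are not independent replicates either, since those of CMT are passages of 1 line and the others are single libraries of further lines. The tests below fit mESCs, EpiLCs, EpiSCs and fPSCs together with 1 estimate of the spread. The spread among fPSC passages, lines and kits thus also enters comparisons without fPSCs. All standard errors and p-values of this fit treat the 7 fPSC libraries as independent.

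Levels are FPKM, fragment counts scaled by transcript length and library size, and the sequencing depth is unknown. The FPKM of all genes added up to 307394 in the lowest and 414727 in the highest library, with 10034 to 10933 genes at 1 FPKM or more. Marker sums followed the labels of mESCs, EpiLCs and fPSCs. The 6 naïve genes summed to 884 and 700 FPKM in mESCs and to at most 30.2 elsewhere. The 4 formative genes summed to 835 and 894 FPKM in EpiLCs and to 562 to 801 FPKM in the 7 fPSC libraries. They summed to 31.1 and 26.8 FPKM in mESCs and to 182 and 197 in EpiSCs. Much of that sum was Dnmt3b, with means of 661 FPKM in EpiLCs and 478 in fPSCs. By the limma test described below, Fgf5, Otx2 and Dnmt3b were higher in fPSCs than in EpiSCs. Pou3f1 did not differ past the threshold. No primed markers were summed, so the EpiSC label was not checked. In EpiSCs, 12 fibroblast genes summed to 224 and 301 FPKM, with 8 and 9 of them at 1 FPKM or more and 0 listed at 0, against 3.64 to 38.8 FPKM with at most 4 of them at 1 FPKM in the other libraries. The part of these feeder transcripts in the EpiSC values below was not tested. In bulk RNA, fewer cells of a type and less RNA per cell cannot be told apart.

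The members lie at 8 loci of the mm9 genome. Nodal is at chr10:60880720-60888086 on the plus strand, Gdf3 at chr6:122555421-122560105 on the minus strand, and Tdgf1 at chr9:110842114-110848662 on the minus strand. The receptors are at chr15:101004556-101043032 (Acvr1b, plus strand) and chr9:119311562-119342619 (Acvr2b, plus strand). Cer1 is at chr4:82527655-82531052 and Fst at chr13:115242470-115249159, both on the minus strand. Lefty2 (chr1:182823239-182829234) and Lefty1 (chr1:182865153-182868531) are neighbours on the plus strand of 1 chromosome, 35919 bp apart. Their coding sequences, 1107 bp each, were identical at 92.1% of 1106 aligned bases with an identical run of 140 bp, so the split of reads between both genes is uncertain.

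Promoter windows of 300 bases (250 before to 50 after the start, RefSeq, GRCm38.p6) were at hand for Nodal, Tdgf1, Cer1, Acvr1b and Acvr2b. The 3 below are shown because Nodal is the ligand that feeds back on itself, Tdgf1 had the most H3K4me3 of the members at its promoter, and Cer1 had a methylated promoter in cells with measurable Cer1 RNA (values are given with the chromatin data). The windows were searched for a FOXH1-type motif (TGTNNATT, or AATNNACA on the other strand) and for the short SMAD motif CAGAC, read as GTCTG on the other strand. Matches of both motifs did not overlap each other. All are printed 5′ to 3′ on the gene's strand, with matches in capitals: Tdgf1 is chr9:110946109-110946408 (minus strand), Cer1 is chr4:82885102-82885401 (minus strand) and Nodal is chr10:61417722-61418021 (plus strand).
Tdgf1: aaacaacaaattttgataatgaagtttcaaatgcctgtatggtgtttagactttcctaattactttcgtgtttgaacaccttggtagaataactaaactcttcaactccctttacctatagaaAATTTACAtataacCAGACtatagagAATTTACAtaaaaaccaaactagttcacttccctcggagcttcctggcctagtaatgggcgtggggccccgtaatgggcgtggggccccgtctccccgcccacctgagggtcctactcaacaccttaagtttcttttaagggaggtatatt
Cer1: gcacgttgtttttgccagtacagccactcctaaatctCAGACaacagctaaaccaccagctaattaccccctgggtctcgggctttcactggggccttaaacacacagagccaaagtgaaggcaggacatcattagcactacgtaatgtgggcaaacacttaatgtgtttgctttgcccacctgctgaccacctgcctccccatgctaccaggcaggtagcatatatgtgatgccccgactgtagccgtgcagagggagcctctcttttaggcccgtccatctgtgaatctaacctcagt
Nodal: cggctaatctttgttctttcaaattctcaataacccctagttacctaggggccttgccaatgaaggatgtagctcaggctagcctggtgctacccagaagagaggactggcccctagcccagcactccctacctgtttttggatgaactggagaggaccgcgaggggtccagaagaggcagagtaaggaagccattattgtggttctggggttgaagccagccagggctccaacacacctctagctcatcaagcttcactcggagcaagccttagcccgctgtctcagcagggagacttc
The Tdgf1 window held 2 FOXH1-type matches, starting at positions -127 and -101 from the transcription start, with 1 SMAD motif between them at -113. Of the 32851 promoter windows searched, 0.612% held 2 or more FOXH1-type matches and at least 1 SMAD motif, a combination that was defined after the Tdgf1 window had been read and so is a description only. The Cer1 window held 1 SMAD motif at -213 and that of Acvr2b 1 at -233, a motif found in 49.6% of all windows. The FOXH1-type motif alone was found in 12.2% of windows and in no member other than Tdgf1, and neither motif matched in the windows of Nodal and Acvr1b. A match is a run of letters and not a measured binding site.

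**Figure D1:**
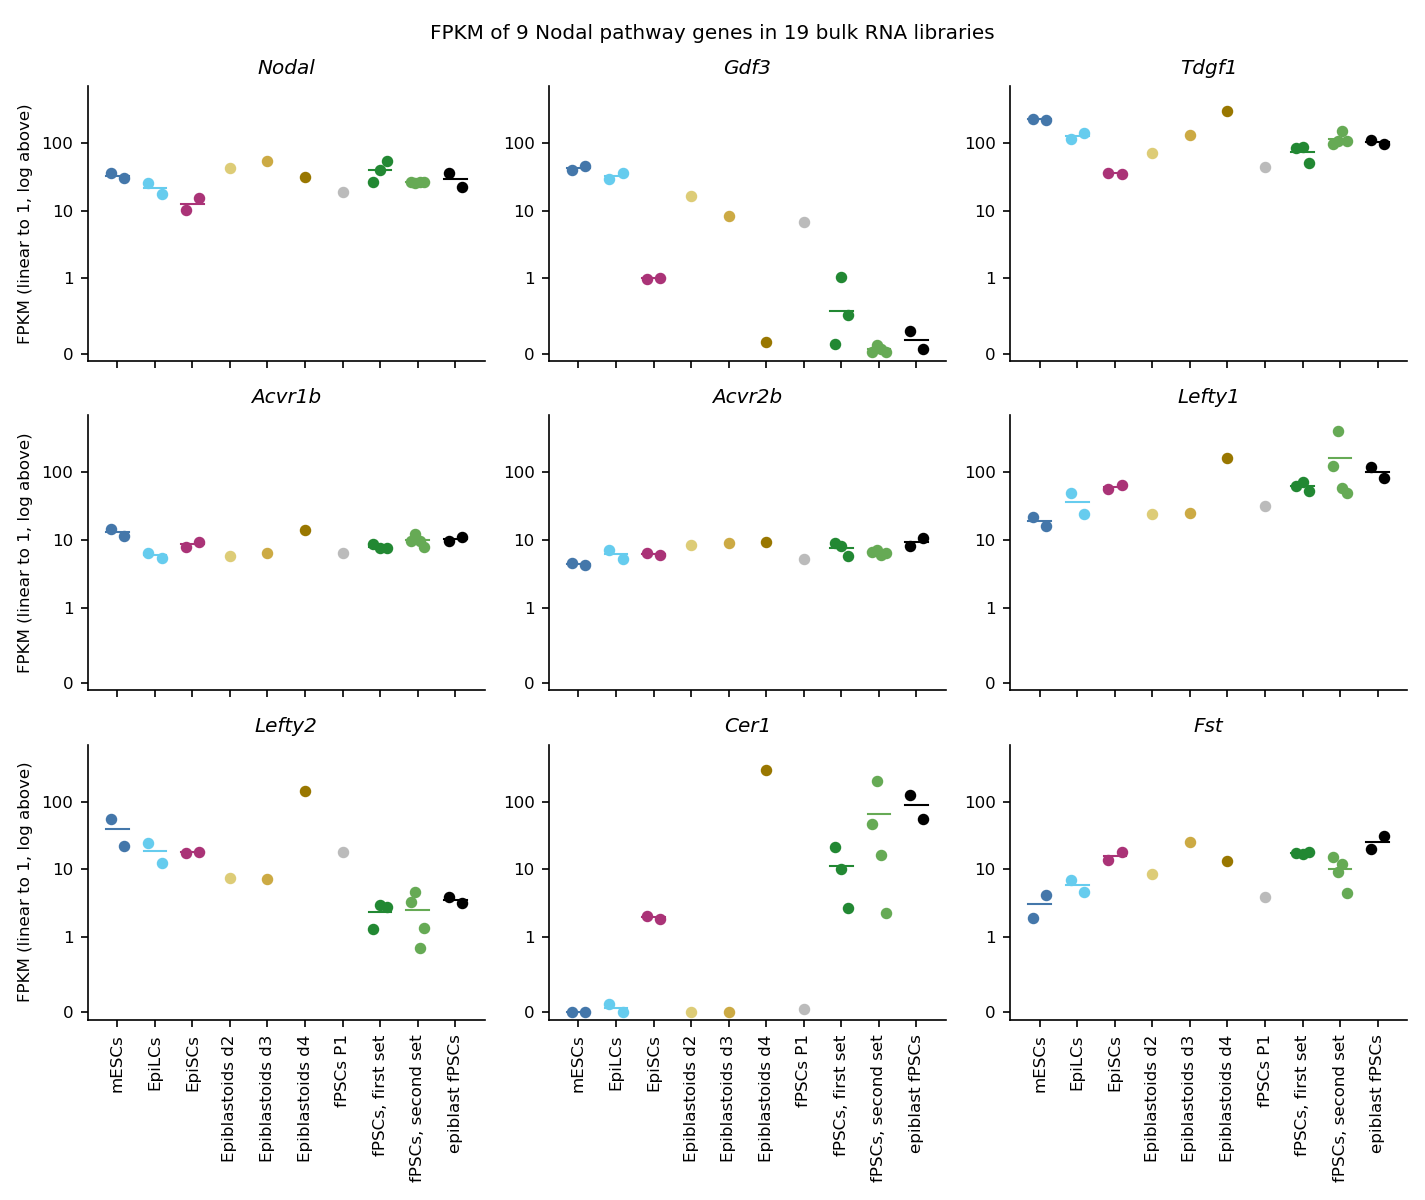
FPKM of the 9 members in each of the 19 bulk libraries, 1 panel per gene, with FPKM on the vertical axis (linear up to 1, logarithmic above) and the groups along the horizontal axis; each point is 1 library and short lines are group means. Gdf3 and Lefty2 sit low in all 7 fPSC libraries, Cer1 is at or near 0 in mESCs and EpiLCs and at 2.23 to 203 FPKM in fPSCs, and Nodal and both receptors vary over a narrower range.

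The levels of the 2 ligands parted between the states: Nodal fell in EpiSCs but overlapped between fPSCs and mESCs, and Gdf3 fell in both. Nodal, the ligand of the epiblast and node, was at 35.6 and 30.6 FPKM in mESCs, 25.7 and 17.9 FPKM in EpiLCs and 10.2 and 15.4 FPKM in EpiSCs. In the 7 fPSC libraries it ranged from 25.8 to 54.6 FPKM with a median of 26.8 FPKM. Every fPSC library was thus above both EpiSC libraries, while the ranges of fPSCs and mESCs overlapped. Differences were tested with limma on log2(FPKM + 1), and a gene is said to rise or fall where its Benjamini-Hochberg adjusted p over 12513 genes was under 0.05 and its fold change at least 1.5. All 9 members passed the filter on low values (1 FPKM or more in at least 2 libraries). Nodal fell in EpiSCs relative to mESCs by 1.33 (SE 0.35) on the log2 scale (adjusted p = 0.00752) and was higher in fPSCs than in EpiSCs by 1.25 (SE 0.28; adjusted p = 0.00442). Both calls were lost without the EpiSC library at 10.2 FPKM (adjusted p of 0.0746 and 0.0886). In the latter comparison the first and the second set of fPSC records gave 1.56 and 1.02. Between fPSCs and mESCs the difference was -0.08 with a 95% interval of -0.69 to 0.54 (adjusted p = 0.852). Within CMT, Nodal was at 26.8 FPKM at passage 10, 40.5 at passage 20 and 54.6 at passage 30, and at 26.8 FPKM in the CMT library of the second set at passage 11. The 4 libraries of the second set lay close together, at 26.5 ± 0.522 FPKM (SD, n = 4), against 40.6 ± 13.9 FPKM (SD, n = 3) in the first.

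Gdf3, a Nodal-related ligand that also uses Tdgf1, was at 40.3 and 45.9 FPKM in mESCs and at 29.1 and 35.9 FPKM in EpiLCs. In EpiSCs it was at 0.994 and 1.02 FPKM, and in fPSCs between 0.0228 and 1.05 FPKM with a median of 0.118. The first set of fPSC records was at 0.127 to 1.05 FPKM and the second at 0.0228 to 0.118 FPKM, without overlap. The mESC and EpiLC libraries were all far above the EpiSC and fPSC libraries, while 1 fPSC library, at passage 20, was above both EpiSC libraries. Gdf3 fell by 5.16 (SE 0.25) on the log2(FPKM + 1) scale in fPSCs relative to mESCs (adjusted p = 3.04e-09), by 4.75 relative to EpiLCs (adjusted p = 3.09e-08) and by 4.45 in EpiSCs relative to mESCs (adjusted p = 1.25e-07). The added 1 FPKM makes these values understate the fold at such low levels. EpiLCs and mESCs differed in Gdf3 by -0.40 (95% interval -1.07 to 0.27; adjusted p = 0.367). Gdf3 was also lower in fPSCs than in EpiSCs by 0.70 (adjusted p = 0.0429), a call that was lost with the fPSCs of the first set alone (-0.40, adjusted p = 0.223) and without any 1 of 7 libraries (adjusted p of 0.0595 to 0.22). In the time course it was at 16.4, 8.36 and 0.155 FPKM in Epiblastoids of days 2, 3 and 4 and at 6.87 FPKM in fPSCs at passage 1.

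Tdgf1, the co-receptor that Nodal and Gdf3 need, was highest in mESCs and lowest in EpiSCs among the replicated groups. It was at 230 and 221 FPKM in mESCs, at 116 and 143 FPKM in EpiLCs and at 36.1 and 35.1 FPKM in EpiSCs. The fPSC libraries ran from 51.7 FPKM (passage 30) through a median of 96.6 to 149 FPKM (BVSC). They lay between mESCs and EpiSCs with no overlap with either and spanned the EpiLC values. The first set of records, at 51.7 to 87.1 FPKM, did not overlap the second, at 96.6 to 149 FPKM. Tdgf1 fell by 2.63 (SE 0.35) in EpiSCs (adjusted p = 5.04e-05) and by 1.26 (SE 0.28) in fPSCs (adjusted p = 0.00287), both relative to mESCs on the log2(FPKM + 1) scale. It was higher in fPSCs than in EpiSCs by 1.38 (adjusted p = 0.00241), with 1.01 in the first and 1.65 in the second set of records. Between fPSCs and EpiLCs the difference was -0.45 (95% interval -1.06 to 0.16; adjusted p = 0.341), and the first set taken alone gave a fall of 0.82 (adjusted p = 0.0241).

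Over the 6 comparisons the receptor transcripts had the smallest maximum fold changes of the 9 members. Acvr1b, the type I receptor, was at 14.5 and 11.4 FPKM in mESCs, 6.54 and 5.45 FPKM in EpiLCs and 7.94 and 9.28 FPKM in EpiSCs, and at 7.66 to 12.3 FPKM (median 8.68) in fPSCs. Both EpiLC libraries were below all libraries of the other 3 groups. It fell in EpiLCs relative to mESCs by 0.99 (SE 0.24; adjusted p = 0.00631), which was the only change of a member past the threshold in that comparison, where 29.6% of all genes tested passed it (12.2% higher and 17.4% lower). That call was lost without the mESC library with the higher level (adjusted p = 0.0646). Acvr2b, a type II receptor, was at 4.55 and 4.29 FPKM in mESCs, 7.02 and 5.28 in EpiLCs, 6.48 and 6.0 in EpiSCs, and 5.86 to 8.93 FPKM (median 6.74) in fPSCs. Its 2 mESC libraries were the lowest of all 19. It was higher in fPSCs than in mESCs by 0.56 (SE 0.18; adjusted p = 0.0213), which is under the 1.5-fold threshold, and it passed with the first set alone (0.66, adjusted p = 0.0183), with 0.1 added in place of 1 (0.65, adjusted p = 0.0202), with upper-quartile scaling (0.60, adjusted p = 0.0169) and without the CMT library at passage 30 or BVSC (0.60 in each case, adjusted p of 0.017 and 0.0215). The ratio of Acvr2b to Acvr1b was 0.314 and 0.375 in mESCs and 0.586 to 1.07 in fPSCs.

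The 4 inhibitors did not move as 1 group. Lefty1 and Lefty2 are close paralogs that block Nodal and its co-receptor, and between fPSCs and mESCs they went in opposite directions. Lefty1 was at 22.2 and 16.1 FPKM in mESCs, 49.9 and 24.5 in EpiLCs and 56.3 and 64.8 in EpiSCs, and at 49.2 to 414 FPKM (median 63.9) in fPSCs. All fPSC libraries were above both mESC libraries, and their range took in both EpiSC libraries and 1 EpiLC library. It rose in fPSCs relative to mESCs by 2.15 (SE 0.64) on the log2(FPKM + 1) scale (adjusted p = 0.0147), with 1.69 in the first and 2.50 in the second set of records. The highest fPSC library, 46C at 414 FPKM, was 0.791 of the group's range above the next, and without it the rise was 1.78 (adjusted p = 0.00106). Without either mESC library the call was lost (adjusted p of 0.0657 and 0.128). The differences of fPSCs from EpiLCs (1.3, SE 0.64; adjusted p = 0.211) and EpiSCs (0.52; adjusted p = 0.546) were within the spread between libraries. Both EpiSC libraries were also above both mESC libraries, by 1.63 (SE 0.79; adjusted p = 0.106, limma). That difference passed the threshold when only these 2 groups were fitted (adjusted p = 0.000935), so higher Lefty1 than in mESCs was not particular to fPSCs.

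Lefty2 was at 55.8 and 22.3 FPKM in mESCs, 24.9 and 12.3 in EpiLCs and 17.7 and 18.4 in EpiSCs. In fPSCs it was at 0.848 to 4.63 FPKM (median 2.81), below every library of the other 3 groups. It fell in fPSCs by 3.5 (SE 0.43) relative to mESCs (adjusted p = 2.71e-05), by 2.53 relative to EpiLCs (adjusted p = 0.00153) and by 2.56 relative to EpiSCs (adjusted p = 0.000622). The fall relative to EpiLCs was not past the threshold without the EpiLC library at 24.9 FPKM (adjusted p = 0.0555). Both sets of records gave a fall in each comparison, of 3.48 and 3.51 relative to mESCs, 2.51 and 2.54 relative to EpiLCs, and 2.55 and 2.58 relative to EpiSCs. The ratio of Lefty1 to Lefty2 was 0.398 and 0.721 in mESCs, 2.00 and 1.99 in EpiLCs, 3.17 and 3.53 in EpiSCs and 19.1 to 89.4 in fPSCs. The fPSCs of E5.5 and E6.5 epiblasts had ratios of 31.1 and 25.5, while fPSCs at passage 1, with 32.4 FPKM of Lefty1 and 18.4 of Lefty2, had 1.76. The high ratio was thus shared by fPSCs of both origins and was not seen at passage 1, where there was 1 library. The sum of both genes, which a split of shared reads changes less than the ratio, was 78.0 and 38.3 FPKM in mESCs and 50.6 to 419 FPKM in fPSCs.

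Cer1, a secreted protein of the DAN family that binds Nodal, was listed at 0 in both mESC libraries and at 0.105 and 0 FPKM in EpiLCs. In EpiSCs it was at 2.07 and 1.82 FPKM. In fPSCs it spanned 2.23 to 203 FPKM with a median of 16.2, above every library of the other 3 groups. It rose in fPSCs relative to mESCs (adjusted p = 0.0118, no fold being given against a level of 0) and relative to EpiLCs by 4.05 (SE 1.17; adjusted p = 0.0332). Both sets of records passed the threshold in each comparison, and against EpiLCs they gave 3.21 and 4.68. The call against EpiLCs was lost without either EpiLC library (adjusted p of 0.182 and 0.192) or without the CMT library at passage 10 (0.0508) or 11 (0.053), and that against mESCs without either mESC library (0.0823 and 0.0828). Against EpiSCs the difference was 2.57 (SE 1.17; adjusted p = 0.103), and each set of records alone passed the threshold (1.72, adjusted p = 0.04, and 3.20, adjusted p = 0.0494).

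Cer1 also varied most among the fPSC libraries. Within CMT it was at 21.1, 10.2 and 2.73 FPKM at passages 10, 20 and 30 and at 46.2 FPKM in the second set at passage 11. The libraries of 46C, BVSC and ROSAmTmG were at 203, 16.2 and 2.23 FPKM, and the fPSCs of E5.5 and E6.5 epiblasts at 124 and 56.4 FPKM. Markers of endoderm and anterior streak (Sox17, Foxa2, Cxcr4, Gsc, Hhex and Foxa1) moved with it. Their sum was 68.8, 40.7 and 11.2 FPKM at CMT passages 10, 20 and 30, 68.4 in the other CMT library, 262 in 46C, 48.9 in BVSC and 13 in ROSAmTmG, and 143 and 121 FPKM in the epiblast-derived fPSCs. All 6 markers were at 1 FPKM or more in these libraries except at passage 30 (4 of 6) and in ROSAmTmG (2 of 6, Foxa2 and Gsc), and 0 of them was listed at 0. In each mESC library 3 of the 6 reached 1 FPKM, in each EpiLC library 1 and in each EpiSC library 4, with 1 marker listed at 0 in 1 mESC and in 1 EpiLC library. In the groups without Cer1 above 2.07 FPKM the sum was 18.2 and 19.9 in mESCs, 2.08 and 2.80 in EpiLCs and 20.7 and 30.2 FPKM in EpiSCs. Of the visceral endoderm genes looked at, Apoa1 reached 16.9 FPKM and Hnf4a 2.87 FPKM among the 7 fPSC libraries. Amn, Ttr, Rhox5, Apob, Cubn and Afp stayed at 0.964 FPKM or less there. Which kind of endoderm the markers stand for was not tested. The part of endoderm and streak cells in the Cer1 and Lefty1 values was not tested.

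**Figure D2:**
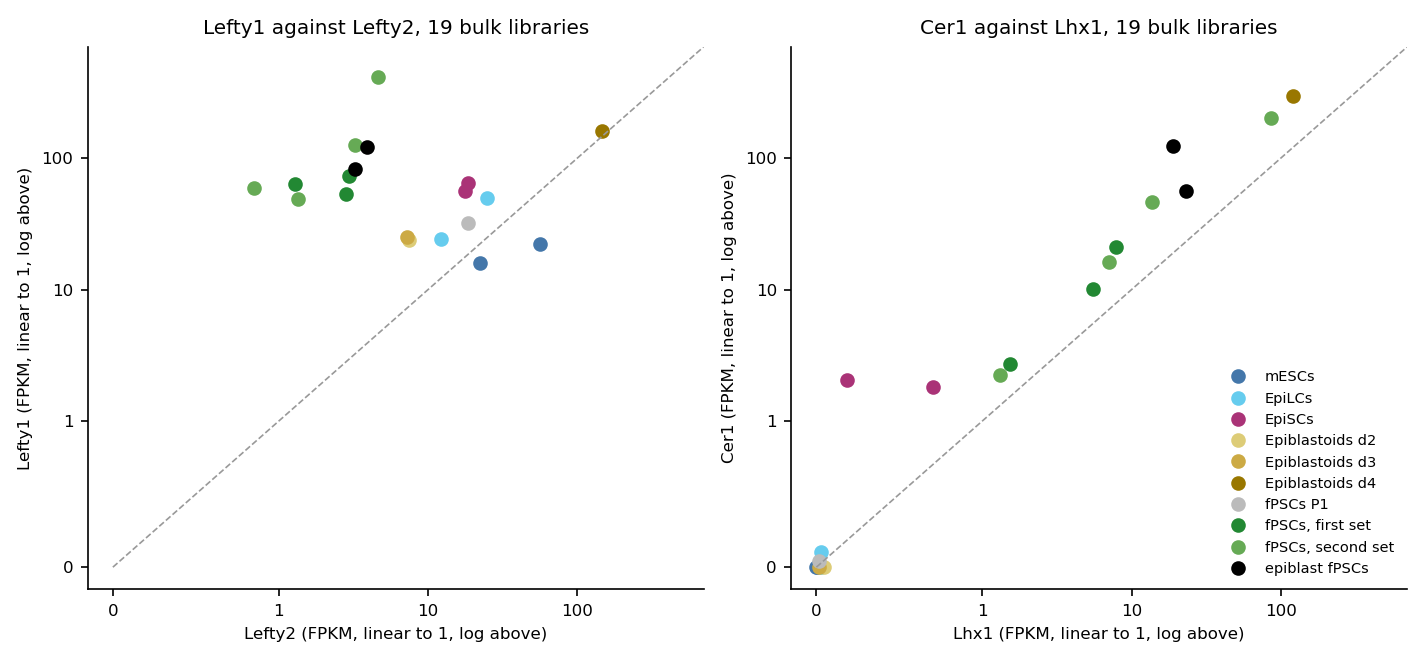
Lefty1 against Lefty2 (left) and Cer1 against Lhx1, a gene of node and anterior endoderm (right), in FPKM on axes that are linear up to 1 and logarithmic above, with 1 point per bulk library coloured by group and a dashed line where both genes are equal. The 7 fPSC libraries and the 2 epiblast-derived libraries sit apart from the rest at Lefty1 to Lefty2 ratios of 19.1 to 89.4, and the libraries with most Cer1 are those with most Lhx1.

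Fst, the secreted Activin antagonist, was at 1.89 and 4.20 FPKM in mESCs, 6.93 and 4.65 in EpiLCs and 13.6 and 18.0 in EpiSCs. In fPSCs it was at 4.47 to 18.3 FPKM (median 15.2). The first set of records was at 16.7 to 18.3 FPKM and the second at 4.47 to 15.2 FPKM, without overlap. All fPSC libraries were above both mESC libraries, and ROSAmTmG, the lowest, was below both EpiLC libraries. Fst rose relative to mESCs by 2.10 (SE 0.53) in EpiSCs (adjusted p = 0.00541) and by 1.78 (SE 0.42) in fPSCs (adjusted p = 0.00411). Without the mESC library at 1.89 FPKM both calls were lost (adjusted p of 0.0565 and 0.0929). Relative to EpiLCs the fPSC difference was 0.99 (95% interval 0.07 to 1.90; adjusted p = 0.146), and it passed the threshold with the first set of records alone (1.47, adjusted p = 0.0033) and without ROSAmTmG (1.2, adjusted p = 0.0172).

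Over the whole set, 6 of the 9 members passed the threshold between fPSCs and mESCs, with Lefty1, Cer1 and Fst higher and Gdf3, Tdgf1 and Lefty2 lower. Of all genes tested in that comparison 40.3% passed, 17.3% higher and 23% lower. Between EpiSCs and mESCs 4 members passed, Fst higher and Nodal, Gdf3 and Tdgf1 lower, against 47.8% of all genes (23.1% higher and 24.7% lower). Between fPSCs and EpiLCs 3 members passed, Cer1 higher and Gdf3 and Lefty2 lower, against 13.8% of all genes (5.66% higher and 8.15% lower). Between fPSCs and EpiSCs 4 members passed, Nodal and Tdgf1 higher and Gdf3 and Lefty2 lower, against 32.3% of all genes (13.3% higher and 19% lower). Between EpiSCs and EpiLCs 2 members passed, Gdf3 (a fall of 4.05, adjusted p = 6.06e-07) and Tdgf1 (a fall of 1.82, adjusted p = 0.0015), against 35.9% of all genes (20.4% higher and 15.5% lower). The comparisons share libraries and are not independent of each other. With backgrounds of this size the count of members past the threshold is no result of its own, and the median log2 fold change of the 9 members was -0.08 between fPSCs and mESCs, where that of all genes was -0.04.

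**Figure D3:**
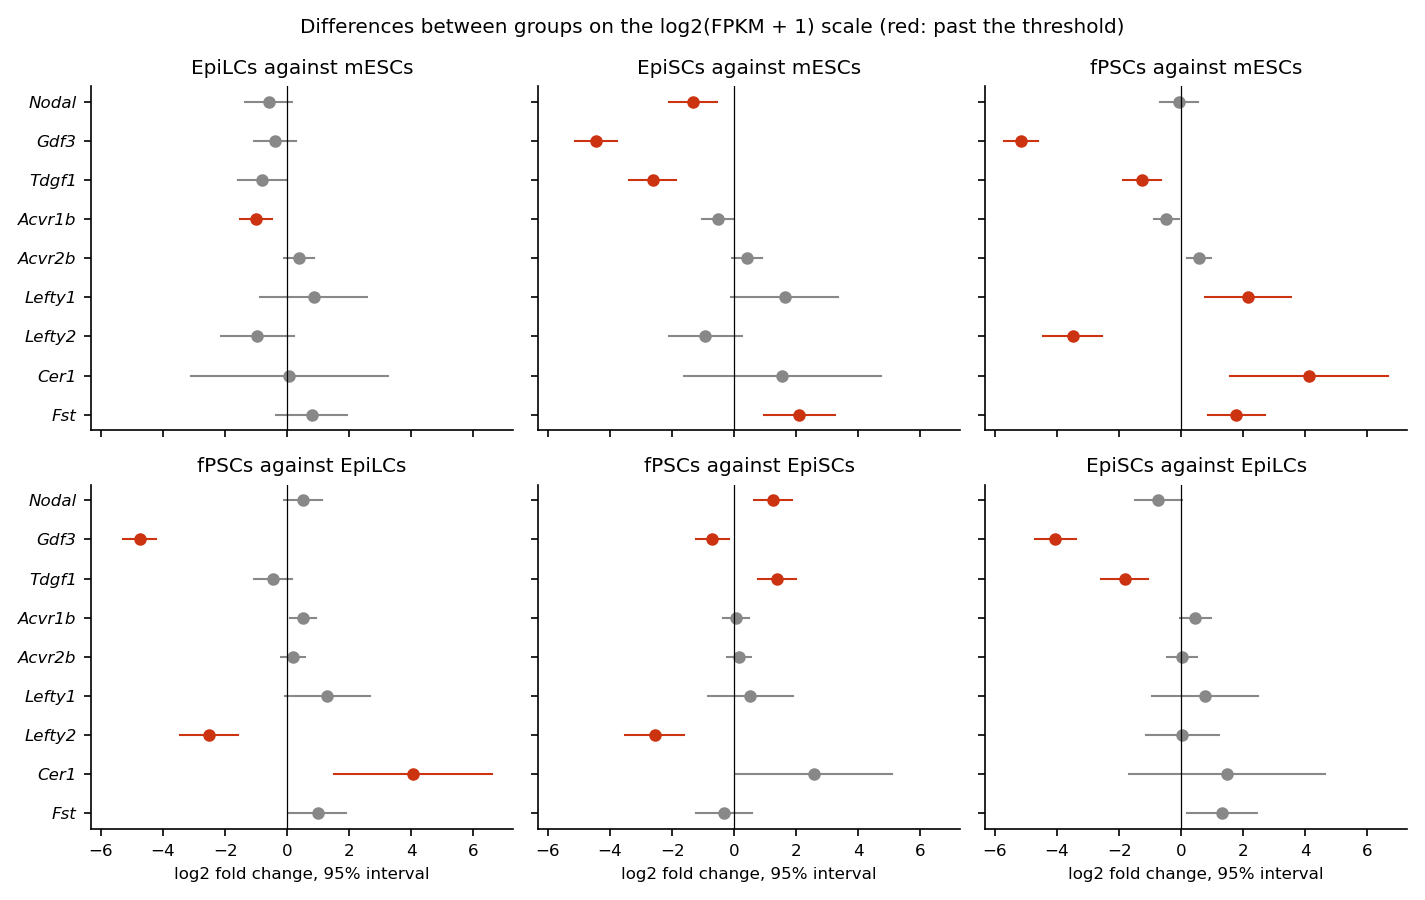
Log2 fold changes of the 9 members in the 6 comparisons, from limma on log2(FPKM + 1), with 95% intervals as bars; red marks values past the threshold of adjusted p under 0.05 and a 1.5-fold change, and grey the others. Gdf3 and Lefty2 carry the lowest values in the comparisons of fPSCs with mESCs and EpiLCs, and of the 2 receptors only Acvr1b, in EpiLCs against mESCs, is past the threshold.

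Of 38 other genes of the pathway, 35 were tested. Between fPSCs and mESCs 13 rose and 5 fell, with a median log2 fold change of 0.43 against -0.04 over all genes. Of all genes tested, 17.3% rose and 23% fell. Of the 7 mesendoderm targets, 6 rose, among them Foxa2, an endoderm and node factor (31.9 ± 25.9 FPKM, SD, n = 7, against 0.0202 ± 0.0286, n = 2; log2 fold change 4.59, adjusted p = 0.0002), and Eomes, a T-box factor of the streak (2.97, adjusted p = 5.24e-06). Lhx1, a LIM factor of node and anterior endoderm, rose by 3.10 and the streak gene T by 3.01 (adjusted p of 0.0223 and 8.95e-05). Foxa2 and Gsc, here and in the comparisons below, are also among the endoderm and anterior streak markers, whose part was not tested. Pcsk6, a convertase that cleaves the Nodal precursor, fell by 3.15 (adjusted p = 1.63e-05), Smad3 fell by 0.93 (adjusted p = 0.00341) and Drap1, a corepressor that binds Foxh1, fell by 1.24 (adjusted p = 0.0015).

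Between fPSCs and EpiLCs 7 of the 35 rose and 3 fell (median 0.31, against 0.01 over all genes), while 5.66% of all genes rose and 8.15% fell. Foxa2 (4.41), T (3.87), Eomes (3.37) and the organizer gene Gsc (2.77) were the largest rises, with adjusted p of 0.00105, 3.85e-05, 6.72e-06 and 0.0471. The call for Gsc was lost under 8 of 15 alternatives, leaving out single libraries among them. Skil, an inhibitor of Smad complexes that is itself induced by the signal, fell by 0.96 (adjusted p = 0.0154). Gdf1, a further Nodal partner, fell by 2.03 (adjusted p = 0.00384), although Gdf1 shares a transcript with Cers1 and its reads are uncertain. Between fPSCs and EpiSCs 5 rose and 10 fell (median -0.14, against 0.02), while 13.3% of all genes rose and 19% fell. Eomes (2.46), Gsc (2.42), Mixl1 (2.12) and Skil (1.10) rose, while Tgfb1 (-2.13), the receptor Tgfbr2 (-2.88), the convertase Furin (-3.01) and Tgfb2 (-3.08) fell, with adjusted p from 2.32e-06 to 0.044. These 4 falls stand beside the fibroblast genes of EpiSCs given above (7 of the 8 tested fibroblast genes fell as well), whose part was not tested.

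Between EpiLCs and mESCs 5 of the 35 rose and 5 fell (median 0.03, against -0.06 over all genes), while 12.2% of all genes rose and 17.4% fell. Gdf1 (2.46), Skil (2.31) and Foxh1 (1.82) rose and Drap1 (-1.37), Smad3 (-1.46), Pcsk6 (-3.43) and Gsc (-3.69) fell, with adjusted p from 6.87e-05 to 0.0198. Between EpiSCs and mESCs 19 rose and 3 fell (median 0.97, against -0.09), while 23.1% of all genes rose and 24.7% fell. T (4.06), Furin (3.54) and Foxa2 (3.51) were among the rises, and Drap1 (-1.27), Gsc (-3.34) and Pcsk6 (-3.96) were the falls (adjusted p from 1.52e-05 to 0.0213). Between EpiSCs and EpiLCs 12 rose and 3 fell (median 0.52, against -0.03), while 20.4% of all genes rose and 15.5% fell. T (4.93), Furin (4.20), Tgfb2 (3.57) and Tgfbr2 (3.39) were among the rises. Trim33 (-1.53), Gdf1 (-1.87) and Skil (-2.06) were the falls (adjusted p of all 7 from 4.42e-06 to 0.0111). Of the pathway calls named here, 12 were lost when a single library was left out: those of Gsc in all 4 comparisons, of Lhx1 (adjusted p of 0.121 and 0.119 without either mESC library), of Foxh1 and Drap1 between EpiLCs and mESCs, of Mixl1 between fPSCs and EpiSCs, of Skil between fPSCs and either EpiLCs or EpiSCs, and of Gdf1 between EpiLCs and either fPSCs or EpiSCs. In both EpiSC comparisons the fibroblast genes also differed (8 of 8 tested rose relative to mESCs, and 6 rose and 1 fell relative to EpiLCs).

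The Epiblastoid course had 1 library per day and so no test. Between days 3 and 4 Cer1 went from a listed 0 to 295 FPKM, and Lefty2 from 7.23 to 147 FPKM, a log2 ratio of 4.16 on log2(FPKM + 1). Lefty1 went from 25.0 to 162 FPKM (2.65), Tdgf1 from 131 to 299 FPKM (1.18) and Acvr1b from 6.5 to 14.3 FPKM (1.03). Day 4 was thus the library with the most Tdgf1, Lefty2 and Cer1 of all 19. Of all 11357 genes compared, 7.85% were at least 2-fold higher and 8.22% at least 2-fold lower, against 5 members higher and 1, Gdf3 (-3.02), lower. Nodal went the other way from most, with 42.3, 53.9 and 31.5 FPKM at days 2, 3 and 4, and Fst was at 8.52, 25.0 and 13.3 FPKM. Acvr2b stayed at 8.45, 9.01 and 9.40 FPKM. The Lefty1 to Lefty2 ratio was 3.20, 3.46 and 1.10, so the day 4 library held both Lefty genes while the fPSC libraries held mostly Lefty1. The endoderm and anterior streak markers summed to 2.48, 2.85 and 473 FPKM over the same days, and their part in these values was not tested. At passage 1, fPSCs had 18.8 FPKM of Nodal, 44.4 of Tdgf1, 0.0392 of Cer1, 3.90 of Fst, 6.49 of Acvr1b and 5.28 of Acvr2b, with a marker sum of 2.48 FPKM.

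The fPSCs taken from E5.5 and E6.5 epiblasts, 1 library each, resembled the mESC-derived fPSCs in most members. Nodal was at 35.8 and 22.5 FPKM, Gdf3 at 0.302 and 0.0554, Tdgf1 at 113 and 98.8, and Lefty2 at 3.91 and 3.22 FPKM. Lefty1 was at 122 and 82.2 FPKM, Acvr1b at 9.77 and 11 FPKM. All of these except the E6.5 value of Nodal lay within the range of the 7 fPSC libraries. Fst (19.7 and 31.2 FPKM) was above that range in both, and Acvr2b (8.04 and 10.8 FPKM) in the E6.5 library.

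Across the 19 bulk libraries, each member was set beside 7833 genes that reached 10 FPKM in at least 1 library, by Pearson's r of log2(FPKM + 1). These are descriptions over libraries that share lines, media and batches. Cer1 followed Lhx1 (0.984), Sox17 (0.967) and Cyp26a1 (0.961), and Lefty1 followed Foxq1 (0.923), Slc38a3 (0.919) and Cyp26a1 (0.918). Lefty1 and Cer1 had r = 0.900 with each other, and Lefty1 and Lefty2 had -0.185. Gdf3 followed Prr23a3 (0.982), D1Pas1 (0.979) and Pramef12 (0.976), and its r was -0.765 with Cer1 and -0.762 with Lefty1. Acvr1b followed Dsp (0.932), Hes1 (0.907) and Ntn1 (0.889), Acvr2b followed Alox15 (0.852), Ddi2 (0.843) and Ctnnbip1 (0.814), and Fst followed Wnt8a (0.857), Ddi2 (0.828) and Slc25a10 (0.809). Tdgf1 was nearest to Ddt (0.874), Rpl9 (0.864) and Rps25 (0.849), Lefty2 to St6galnac4 (0.852), H2afy2 (0.811) and Neurl1a (0.810), and Nodal, with the lowest values, to Comtd1 (0.761), Tomm40 (0.758) and Polr2f (0.756).

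The promoters of the members in fPSCs at passage 10 fell into 2 kinds by the chromatin tracks, of which there was 1 per assay and so no spread between replicates. H3K4me3, a mark of active and poised promoters, and H3K27me3, a Polycomb mark, are given as mean RPKM (reads scaled by window length and library size) within 1000 bp of the annotated start, and DNA methylation as the mean methylated fraction, for which the coverage is unknown. Over 22090 promoters the median H3K4me3 was 2.55. Tdgf1, whose window with 2 FOXH1-type matches is printed above, had 11.5 RPKM of H3K4me3, above 98.4% of promoters, and a methylated fraction of 0.0453. Nodal had 7.28 RPKM and 0.0893, Acvr2b 6.78 and 0.0123, Lefty1 6.59 and 0.138, Acvr1b 5.04 and 0.108, and Fst 4.17 and 0.0111. The other 3 promoters carried little H3K4me3 and were methylated: Lefty2 with 1.62 RPKM and 0.863, Cer1 with 1.80 and 0.855, and Gdf3 with 0.746 and 0.91. The median methylated fraction over 21466 promoters was 0.353. Lefty2 and Gdf3 were at 1.29 and 0.127 FPKM in the RNA of fPSCs at passage 10, while Cer1 was at 21.1 FPKM there with a methylated start. Both measures are averages over many cells, and whether the same cells carried the methylation and the RNA was not tested. None of the 9 reached the 90th percentile of H3K27me3 (1.61 RPKM), with means of 0.032 (Tdgf1) to 0.579 (Fst). The split of 6 and 3 was the same within 2500 bp.

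Further from the starts, stretches of low methylation were listed where at least 3 neighbouring windows of 100 bp were at 0.2 or below. Positions are in bp from the start, negative upstream. Fst had the longest, from -1900 to 2700, with a mean fraction of 0.0132. Around Tdgf1, which had shorter ones from -8400 to -7400 and from -2600 to -2100, it ran from -1600 to 1700 with a mean H3K4me3 of 11.3 RPKM. Lefty2, methylated at its start, had a stretch of 6 windows from -4600 to -3700, with a mean fraction of 0.02 and 3.87 RPKM of H3K4me3. Nodal had one from -100 to 1500 and one from -2300 to -800, and Lefty1 had one from -1300 to -600. The stretch from 6900 to 8300 at Lefty1 took in the start of the next gene, Tmem63a, at 7322. Cer1 and Gdf3 had no such stretch within 10 kb.

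**Figure D4:**
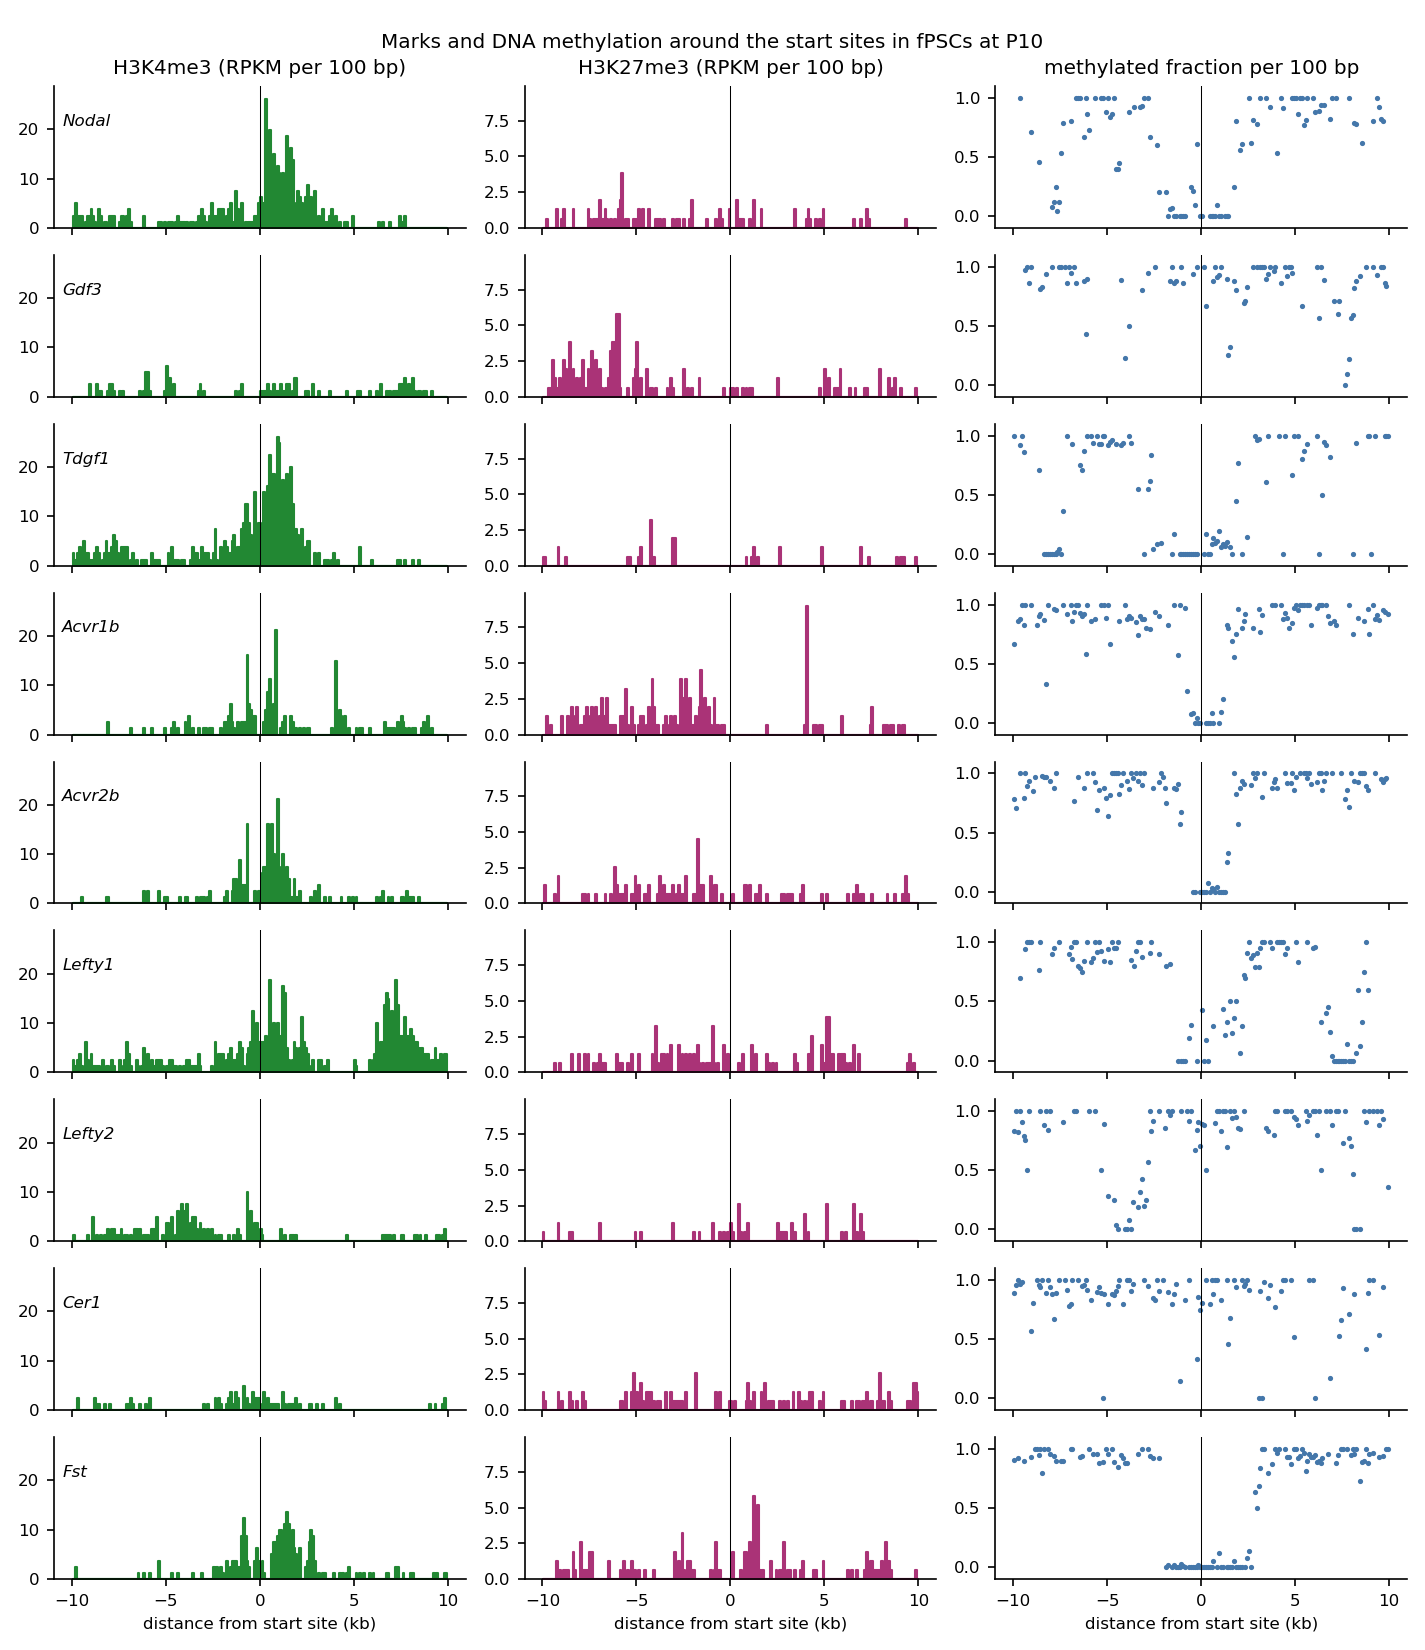
H3K4me3 and H3K27me3 (RPKM per 100 bp window) and methylated fraction around the start of each member in fPSCs at passage 10, with the distance from the start in kb on the horizontal axis and 1 row per gene; filled steps and points are windows of 1 track per assay. Tdgf1 and Nodal have the highest H3K4me3 peaks and a dip in methylation at the start, and Lefty2, Cer1 and Gdf3 stay methylated there.

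Single fPSCs of 4 clones showed which members could be detected cell by cell. The tables held 182 columns of cells, of which 181 with at least 500 genes were kept (46, 45, 46 and 44 per clone), with median totals of 19078, 32356, 33883 and 22634 counts per cell. No cell name was shared between clones and 1 name was listed 2 times. Whether reads of 1 molecule were collapsed is not stated, so the exact binomial 95% intervals cover counting error only. Tdgf1 had a count in 139 of 181 cells (76.8%, interval 70.0 to 82.7%), Lefty1 in 103 (56.9%, 49.4 to 64.2%), Fst in 90 (49.7%, 42.2 to 57.2%), Nodal in 68 (37.6%, 30.5 to 45.1%) and Acvr2b in 53 (29.3%, 22.8 to 36.5%). Acvr1b and Lefty2 each had a count in 13 cells (7.18%, 3.88 to 12.0%). Of 5 genes chosen as markers of other tissues and listed here, Alb had a count in 6 cells (3.31%, 1.23 to 7.08%), Hba-a1 and Myh6 in 2 each (1.1%) and Ins2 in 1 (0.552%). The shares of Acvr1b and Lefty2 were above these, with intervals that overlapped that of Alb. Krt10, a skin keratin and the last of the 5, had a count in 22 cells (12.2%). Krt10 was on the list of background genes, and its share was above those of Acvr1b and Lefty2. It was also at 0.285 to 1.36 FPKM in the 7 bulk fPSC libraries, so its share need not be background. Whether Acvr1b and Lefty2 stand above background thus depends on whether Krt10 is counted. The tables also gave Pou5f1 a count in only 17 cells (9.39%), although it was at 462 to 1025 FPKM in those 7 libraries. A low share here thus does not show that a gene is off.

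Cells with a count were deeper than cells without: the median total was 44938.5 against 18368 counts for Nodal and 39597 against 14158.5 for Lefty1. Thinned to 5000 counts in 167 cells (6, 5, 1 and 3 shallower cells left out of the clones), Tdgf1 was in 83 cells (49.7%), Lefty1 in 65 (38.9%), Fst in 51 (30.5%), Nodal in 24 (14.4%) and Acvr2b in 23 (13.8%), against 5 (2.99%) for Krt10, 6 (3.59%) for Acvr1b and 2 (1.2%) for Lefty2. In the thinned cells Lefty1 and Nodal were together in 13, with 52 holding Lefty1 only, 11 Nodal only and 91 neither. Tdgf1 was found in 35 of the 65 cells with Lefty1 and in 15 of the 24 with Nodal. Of the 121 Lefty2 counts, 61 (50.4%) came from 1 cell.

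Before thinning, the share of cells differed little between clones for Tdgf1 (76.1, 75.6, 80.4 and 75.0% in clones 1 to 4) and Fst (50, 48.9, 47.8 and 52.3%). It was wider for Nodal (34.8, 55.6, 37.0 and 22.7%), Lefty1 (45.7, 66.7, 65.2 and 50%) and Acvr2b (21.7, 46.7, 23.9 and 25.0%). The clones differed in depth, and thinned to 5000 counts this contrast did not hold for Acvr2b and Fst. The thinned cells numbered 40, 41, 45 and 41 in clones 1 to 4. Of these, 6, 6, 6 and 5 had a count of Acvr2b, and 13, 6, 16 and 16 of Fst. For Lefty1 they were 14, 18, 18 and 15, for Nodal 3, 9, 6 and 6, and for Tdgf1 17, 21, 23 and 22. Summed over each clone, Lefty1 was at 115, 335, 237 and 222 CPM (counts scaled to a common total per clone), Tdgf1 at 172, 204, 261 and 207, Nodal at 32, 55.8, 55.2 and 23.7, Fst at 155, 80.2, 116 and 66.5, and Acvr2b at 98.6, 42.2, 39.5 and 24.5. These sums rest on few cells: over all clones, the top 10 cells of each gene held 46.7% (Tdgf1) to 60.3% (Lefty1) of its counts. For Fst and Acvr2b they held 59.3% and 59.9%, so the CPM need not follow the share of cells. Lefty1 was above Lefty2 (0.666, 17.9, 13.2 and 0 CPM) in all 4 clones, as in the bulk fPSC libraries. The clones are 1 condition, so no comparison between them was tested.

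**Figure D5:**
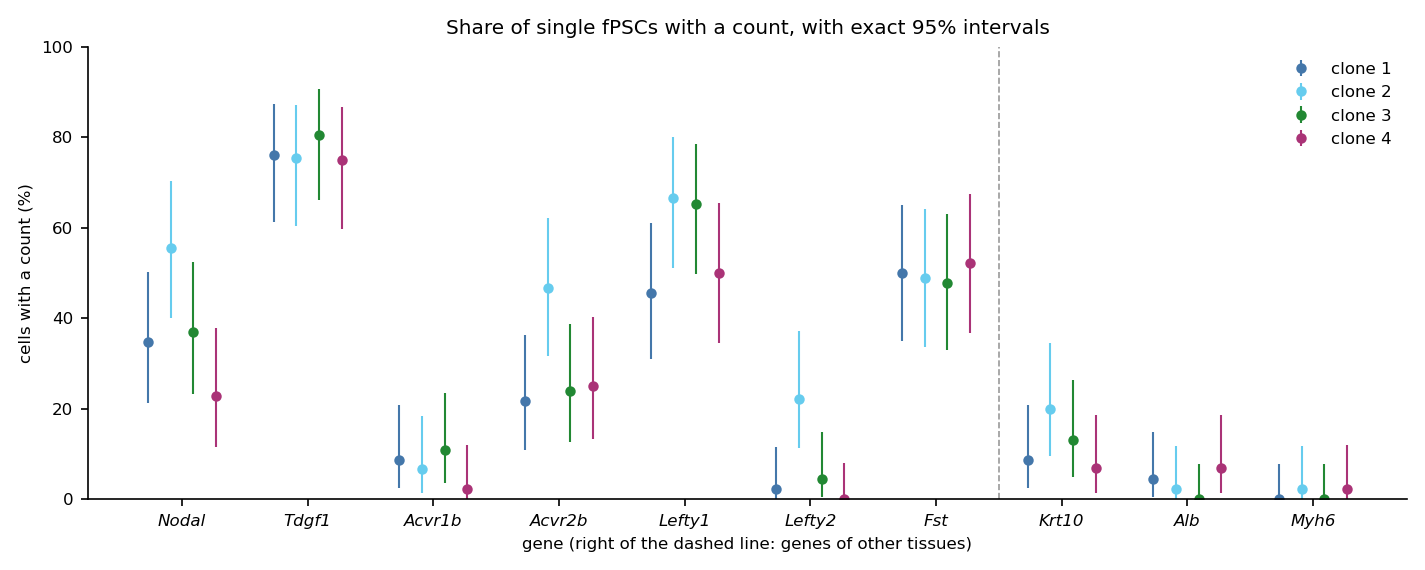
Percent of single fPSCs with a count of each of 7 members and, right of the dashed line, of 3 genes of other tissues (Krt10, Alb and Myh6), with 1 point per clone for 4 clones and exact binomial 95% intervals as bars. Tdgf1 has the highest share in each clone, and Acvr1b and Lefty2 have the lowest shares of the 7 members over all cells.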

How the data were processed

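RNA was measured in 19 bulk libraries and in single cells of 4 fPSC clones, with H3K4me3, H3K27me3 and DNA methylation in fPSCs at passage 10. According to the study's methods and the submitters' processing notes, bulk reads were trimmed (cutadapt 1.11) and aligned to mm9 cDNA (TopHat2 2.1.1), and the authors deposited FPKM made with Cufflinks 2.1.1, to which no count test applies. The single-cell tables, from Smart-seq2 libraries run through Drop-seq_tools by the authors, hold unscaled counts. The histone tracks were deposited by the authors as RPKM in 100 bp windows, after alignment with Bowtie2 2.2.2, and windows without reads are not listed and were taken as 0. The methylation track was deposited by the authors as a methylated fraction per 100 bp, from BS-Seeker2, with no coverage. Whether a track holds 1 or both replicates is not stated.

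Groups were taken from the labels. The 9 members, the pathway lists and the marker lists were chosen with earlier results of these data known. Of 23608 entries, 4 whose names are listed 2 times were dropped. limma 3.58.1 in R 4.3.3 was fitted to log2(FPKM + 1) of mESCs, EpiLCs, EpiSCs and 7 fPSC libraries in 1 fit with a trended prior, two-sided, over the 12513 genes that reached 1 FPKM in 2 libraries or more. The script was tested on simulated data. Pathway genes were named where past the threshold, without overlap between groups, with a group mean that reached 10 FPKM, and among the 4 largest rises or falls, and 1 gene so chosen is not reported here. Cells with at least 500 genes were kept and no doublet caller was run. Python 3.11.15 with pandas 2.3.3, numpy 2.4.6, scipy 1.17.1 and matplotlib 3.10.9 was used for the rest. The mm9 positions were checked against the methylation windows of chromosome 19, of which 99.5% of 26165 held a CpG in that build, against 56.3% when shifted by 1000 bp. As alternatives, each library was left out in turn, each set of fPSC records was used alone, the replicate number was entered as a block, the fit was limited to the pair of groups compared, FPKM were scaled by upper quartile, 0.1 was added in place of 1, and low genes were kept.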

Additional observations from a re-analysis of the deposited data

Results flagged for a closer look

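Among the 7 fPSC libraries, 46C at passage 24 stood apart from the other 6 in 5 of 27 pathway and member genes, its gap to the next library being more than 0.568 of the group's whole range. The limit is met by chance in about 1 in 20 groups only where values are normally distributed. The gaps were taken on FPKM and not on the log2 scale of the tests, where a high library stands out less. How often chance gives such gaps here is thus unknown, and the 5 genes come from 1 library. It was the highest for Lefty1 (414 FPKM, next 126), Cer1 (203 FPKM, next 46.2), Lhx1 (86.5 FPKM, next 13.6), Gsc (56.5 FPKM, next 10.5) and Tgfb2 (3.03 FPKM, next 0.762). Gdf3 (0.118 FPKM), Acvr2b (7.21) and Fst (9.03) of this library lay within the range of the other 6, and Nodal (25.8) was just below the next lowest (26.3). The summed endoderm and anterior streak markers were also highest in it, at 262 FPKM, and their part in these values was not tested. Without it the rises relative to mESCs stayed past the threshold for Lefty1 (log2 fold change 1.78, adjusted p = 0.00106, limma) and Cer1 (adjusted p = 0.00403).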

How the results depend on the processing

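The number of members past the threshold was 1, 4, 6, 3, 4 and 2 for EpiLCs against mESCs, EpiSCs against mESCs, fPSCs against mESCs, EpiLCs and EpiSCs, and EpiSCs against EpiLCs. With only the 2 groups compared it was 2 for EpiLCs against mESCs, 6 for EpiSCs against mESCs (Lefty1 and Cer1 added) and 4 for EpiSCs against EpiLCs, and with the fPSCs of the first set of records it was 8 for fPSCs against mESCs (Acvr1b and Acvr2b added) and 5 for fPSCs against EpiLCs. Leaving out each library in turn gave 0 to 1, 3 to 4, 3 to 7, 1 to 4, 2 to 4 and 2 to 2, in the same order, where a group left with 1 library is assumed to vary like the others. The replicate number used as a block gave 2, 7 and 4 members for EpiLCs against mESCs, EpiSCs against mESCs and EpiSCs against EpiLCs, but the numbers are not shown to pair the libraries: deviations of same-numbered libraries over 12513 genes correlated at 0.20 (mESCs and EpiLCs), -0.20 (mESCs and EpiSCs) and -0.13 (EpiLCs and EpiSCs).

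Only differences that were not past the threshold changed sign. Nodal in fPSCs against mESCs was 0.23 with the first set alone and -0.21 to 0.0297 leaving out 1 library. Acvr2b in fPSCs against EpiLCs was -0.0013 to 0.35 leaving out 1 library. In fPSCs against EpiSCs, Acvr1b was -0.0918 and Fst 0.16 with the first set alone, and Acvr1b was -0.0425 to 0.16 leaving out 1 library. In EpiSCs against EpiLCs, upper-quartile scaling gave -0.0558 for Acvr2b and -0.055 for Lefty2, and leaving out 1 library gave -0.15 to 0.21 and -0.44 to 0.52. The cause was not tested. Over all genes, 1728 passed between fPSCs and EpiLCs, 3178 with the first and 2648 with the second set alone. With no filter on low values Cer1 against EpiLCs (adjusted p = 0.0582, limma) and Gdf3 against EpiSCs (0.0662) in fPSCs were lost, and the former also with only the 2 groups (0.068). Depth is unknown for the bulk libraries. In single cells thinning lowered the share of every member, which taking counts away nearly always does, so this is no result about the members.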

Other observations

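Tdgf1 has a relative, Cfc1 (Cryptic), which can also serve as a Nodal co-receptor. Cfc1 was at 85.3 FPKM in the Epiblastoid library of day 4 and at 29.2 FPKM in 46C, and at 8.48 FPKM or less in the other 17 libraries. Acvr1c, the type I receptor ALK7, was at 0.0212 FPKM or less in all 19 libraries. Foxh1 was at 117 to 157 FPKM in the 3 fPSC libraries of the first set of records and at 53.2 to 61.8 FPKM in the 4 of the second set. This lack of overlap was not particular to Foxh1. Ski (38.3 to 44.2 against 17.5 to 19.7 FPKM) and Tgif1 (90.6 to 101 against 42.1 to 54.1) were also higher in the first set. Trim33 was lower in it (7.43 to 9.56 against 14.5 to 18.2 FPKM). The share of all genes that split in this way was not counted, and set and preparation cannot be told apart.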
